A study of Mus musculus with 8 samples.

Results

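The 33 genes described here mark astrocytes in the rodent brain or carry out their metabolic work. They were chosen as a fixed list of gene symbols, with earlier results of these data known. All 33 were measured, of 18194 genes on the array. RNA came from hypothalamus of untreated 10-week-old mice, 4 wild type and 4 Nestin-Pex5-/-, and each mouse gave 1 Affymetrix mouse genome array. Nestin-Pex5-/- mice carry a loxP-flanked Pex5 gene, which encodes the receptor that brings matrix proteins into peroxisomes, together with a Cre recombinase driven from Nestin, so the deletion is meant for cells of neural progenitor origin and not for microglia or vessels. The methods place the knockout line on a Swiss Webster background, and whether the wild type mice carried Cre or a loxP allele is not given in the sources used here. Arrays are called by the replicate numbers of their labels, 1 to 4 for wild type and 7 to 10 for Nestin-Pex5-/-.

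Astrocytes clear glutamate and GABA from synapses, turn glutamate into glutamine, buffer potassium and water through channels at their vessel-facing endfeet, and couple to each other through gap junctions. They also store glycogen, run glycolysis for their neighbours, and supply lipids and the active form of thyroid hormone. In injured or inflamed brain, astrocytes become reactive, a state best known for high Gfap, the main intermediate filament of the astrocyte, and the genes listed here belong for the most part to the resting programme.

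Values are log2 signals of the robust multi-array average (RMA), the deposited scale, on which a difference of 1 is a 2-fold difference. Values of different genes come from different probes and were not compared in level. Each gene was read from its brightest probe set, a difference is the Nestin-Pex5-/- mean minus the wild type mean, and "past the threshold" means an adjusted p under 0.05 in limma, with the Benjamini-Hochberg adjustment over all 18194 genes. The whole-tissue signal cannot tell apart fewer cells of a type from less RNA per cell. The array medians lay between 6.70 and 6.84. Wild type replicate 4 stood apart from the other 7 arrays on the second principal component, at -29.1 against -0.53 to 9.98. Its mean over 11 oligodendrocyte markers, 11.76, was above the 11.01 to 11.25 of the other wild type arrays, and its mean over 9 choroid plexus markers was 6.87, below all 7 others. Both single-gene probe sets of Pex5 gave overlapping arrays, with differences of 0.01 ± 0.058 (SE) and -0.07 ± 0.073. Whether these probes lie inside the deleted stretch is not given in the sources used here, so they check nothing, and the genotypes are those of the labels.

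Of the 33 astrocyte genes, 4 were higher and 3 were lower in Nestin-Pex5-/- hypothalamus past the threshold, and 26 did not pass. Called genes made up 21.2% of the list, beside 4.77% of all genes tested. Higher genes were 12.1% of the list beside 3.98% of all genes, and lower genes were 9.09% beside 0.791%. The median difference over the list was 0.01, beside -0.03 over all genes, so the calls ran in both directions around a middle near 0. The genes that rose were Slc14a1, Aqp4, Fabp7 and Sox9, and the genes that fell were Cyp4f15, Gpc5 and Slc7a10. Without wild type replicate 4 the list gave 7 higher and 2 lower genes, and without wild type replicate 3 it gave 6 higher and 2 lower genes. Scaled to Actb it gave 3 higher and 4 lower genes, and scaled to 8 reference genes 4 and 4. Among these 8 genes, Rplp0 and Gusb were themselves past the threshold and higher, so that scale is not neutral.

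**Figure D1:**
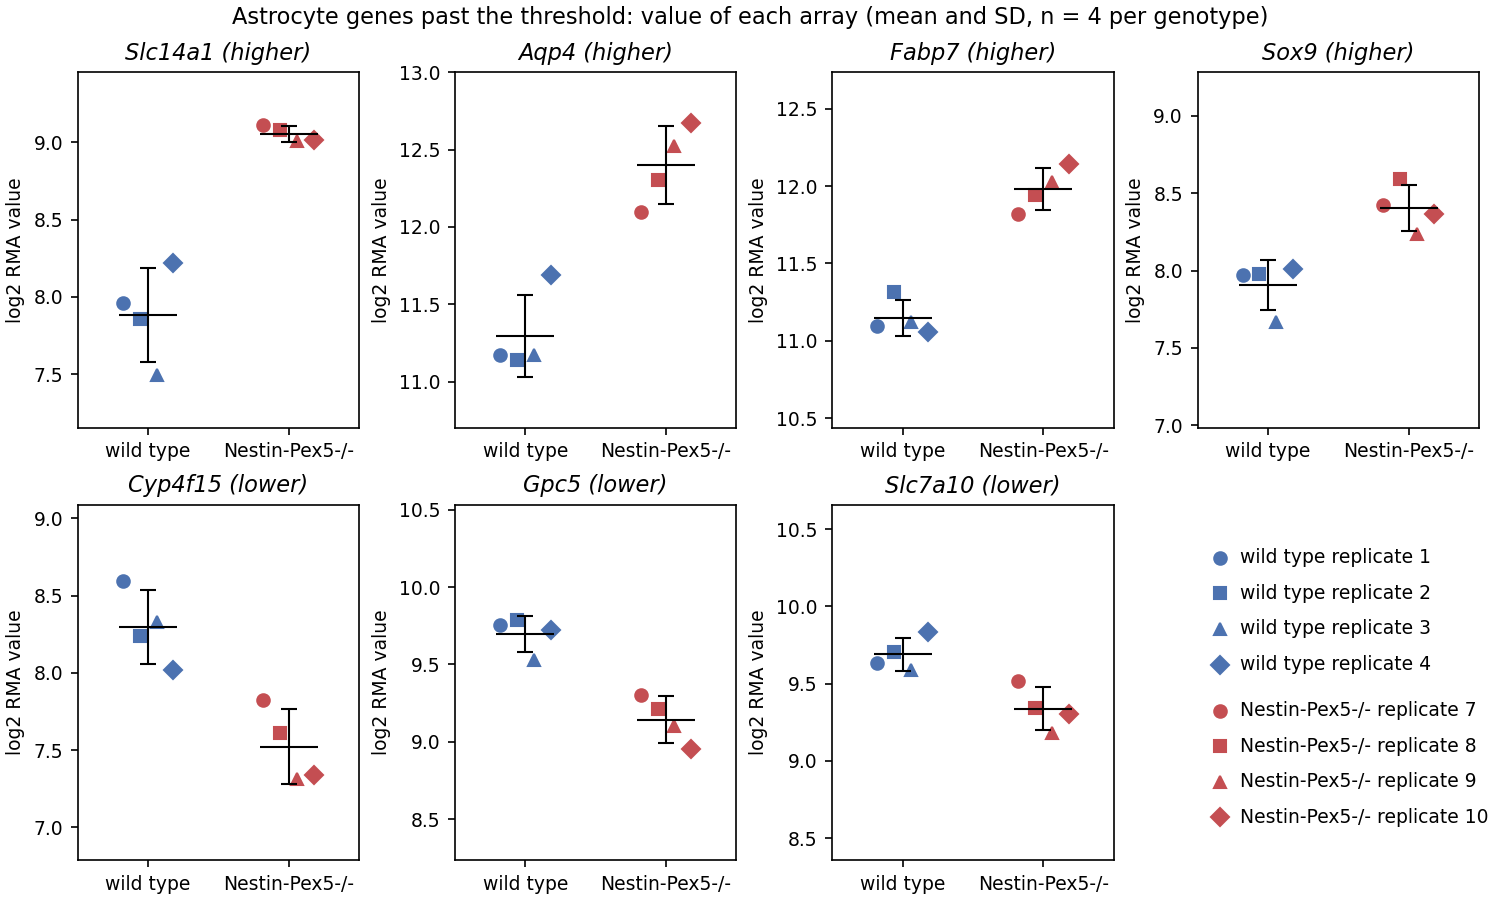
Log2 RMA value (vertical axis, centred for each gene, with the same number of log2 units in every panel) of each array for the 7 astrocyte genes past the threshold, wild type left and Nestin-Pex5-/- right, with the mean (long bar) and SD (error bars, n = 4). In all 7 genes the arrays of the genotypes do not overlap, and Slc14a1 shows the narrowest Nestin-Pex5-/- group, with an SD of 0.050.

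Slc14a1, the urea transporter UT-B that also passes water, rose 2.25-fold. Its wild type arrays read 7.96, 7.85, 7.49 and 8.22, and its Nestin-Pex5-/- arrays 9.11, 9.08, 9.01 and 9.01. The Nestin-Pex5-/- arrays were close together and all above the wild type arrays, which were spread more widely. The difference was 1.17 ± 0.13 (SE; limma adjusted p = 5.3e-04).

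Aqp4, the water channel of astrocyte endfeet, rose 2.15-fold. Wild type arrays read 11.17, 11.14, 11.17 and 11.69, and its Nestin-Pex5-/- arrays 12.09, 12.30, 12.53 and 12.67. Wild type replicate 4 was far above the other wild type arrays yet below every Nestin-Pex5-/- array. The difference was 1.11 ± 0.15 (adjusted p = 0.00222), and it was 1.24 without wild type replicate 4.

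Fabp7, the brain fatty acid binding protein of radial glia and astrocytes, rose 1.78-fold. Its wild type arrays read 11.10, 11.32, 11.12 and 11.05, and its Nestin-Pex5-/- arrays 11.82, 11.94, 12.03 and 12.14. The gap between the genotypes was larger than the whole spread within either of them. The difference was 0.84 ± 0.085 (adjusted p = 2.9e-04).

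Sox9, the transcription factor that sets glial fate and stays on in mature astrocytes, rose 1.41-fold. Its wild type arrays read 7.97, 7.98, 7.67 and 8.01, and its Nestin-Pex5-/- arrays 8.42, 8.60, 8.23 and 8.36. Wild type replicate 3 was the low array, and the nearest arrays of the genotypes, 8.01 and 8.23, were closer than in the genes above. The difference was 0.50 ± 0.099 (adjusted p = 0.0181). The call was lost without Nestin-Pex5-/- replicate 8 (adjusted p = 0.0538), without replicate 10 (0.0514), and with arrays scaled to Actb (0.0511).

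Cyp4f15, a cytochrome P450 of the fatty acid and eicosanoid hydroxylase family, fell to 0.585 of its wild type level. In wild type the arrays read 8.60, 8.24, 8.33 and 8.02, and the Nestin-Pex5-/- arrays 7.83, 7.61, 7.32 and 7.34. Both groups were wide, and the lowest wild type array stood only a little above the highest Nestin-Pex5-/- array. The difference was -0.77 ± 0.14 (adjusted p = 0.0128).

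Gpc5, a glypican, a heparan sulfate proteoglycan held at the cell surface, fell to 0.681 of its wild type level. The arrays read 9.75, 9.79, 9.53 and 9.72 in wild type, and its Nestin-Pex5-/- arrays 9.30, 9.21, 9.10 and 8.95. Every Nestin-Pex5-/- array lay below the lowest wild type array. The difference was -0.56 ± 0.089 (adjusted p = 0.00557).

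Slc7a10, the transporter Asc-1 that carries D-serine, glycine and other small neutral amino acids, fell to 0.784 of its wild type level. Its wild type arrays read 9.63, 9.70, 9.59 and 9.83, and its Nestin-Pex5-/- arrays 9.52, 9.35, 9.18 and 9.30. The arrays did not overlap, but Nestin-Pex5-/- replicate 7 came close to wild type replicate 3. The difference was -0.35 ± 0.084 (adjusted p = 0.0448), and the call was lost when any 1 array other than Nestin-Pex5-/- replicate 7 was left out, with an adjusted p between 0.0569 and 0.132 in those 7 fits.

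Promoter stretches are printed for 3 of the 7 called genes, 1 that rose and 2 that fell, as context for genes that moved in opposite directions. RefSeq promoter entries matched 29 of the 33 genes and 4 of the 7 called genes, and the stretch of the fourth, Slc7a10, lies inside its annotated gene and is not printed. Each stretch runs from 250 to 31 bases before the start of the gene on the plus strand of GRCm38.p6, 220 bases in all. Capitals mark matches, on either strand, to 4 short motifs known from astrocyte gene control: the STAT site TTCNNNGAA, the NFI half-site TTGGC, the SOX sites ACAAAG and ACAATG, and the nuclear receptor half-site AGGTCA, whose other strand reads TGACCT.
Fabp7 (chr10:57784673-57784892): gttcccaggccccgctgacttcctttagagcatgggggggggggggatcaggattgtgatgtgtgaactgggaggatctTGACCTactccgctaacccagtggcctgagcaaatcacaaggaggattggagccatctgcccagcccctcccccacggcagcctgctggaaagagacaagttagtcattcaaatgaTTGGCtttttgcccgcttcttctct
Cyp4f15 (chr17:32685409-32685628): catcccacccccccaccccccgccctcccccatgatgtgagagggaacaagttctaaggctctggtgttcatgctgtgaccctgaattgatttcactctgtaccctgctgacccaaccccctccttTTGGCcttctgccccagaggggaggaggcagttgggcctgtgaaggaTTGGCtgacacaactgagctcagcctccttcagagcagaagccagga
Gpc5 (chr14:115091965-115092184): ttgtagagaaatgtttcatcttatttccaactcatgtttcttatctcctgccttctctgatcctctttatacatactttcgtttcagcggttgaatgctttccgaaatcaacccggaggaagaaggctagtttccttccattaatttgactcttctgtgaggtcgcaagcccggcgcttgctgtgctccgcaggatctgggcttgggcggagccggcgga
The Fabp7 stretch holds 1 NFI half-site, 55 to 51 bases before the start, and 1 nuclear receptor half-site on the other strand, 171 to 166 bases before it. The Cyp4f15 stretch holds 2 NFI half-sites, 124 to 120 and 77 to 73 bases before the start, and the Gpc5 stretch holds none of the 4 motifs. Of 32851 promoter stretches of the same length, 37.9% hold an NFI half-site, 12.5% a nuclear receptor half-site, 23.0% a SOX site and 6.27% a STAT site. No motif overlapped another in the printed stretches, and a match describes only the letters.

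By role, the calls were spread over 4 of the 6 groups into which the 33 genes were sorted. Transmitter uptake and turnover held 6 genes, of which 1 fell, and channels, junctions and membrane transport held 10 genes, of which 2 rose. Sugar, folate and lipid metabolism held 6 genes, with 1 that rose and 1 that fell, as did the 6 genes of the transcription factor, receptors and other identity genes. The 3 genes for secreted proteins and thyroid hormone activation and the 2 metallothioneins gave no call.

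**Figure D2:**
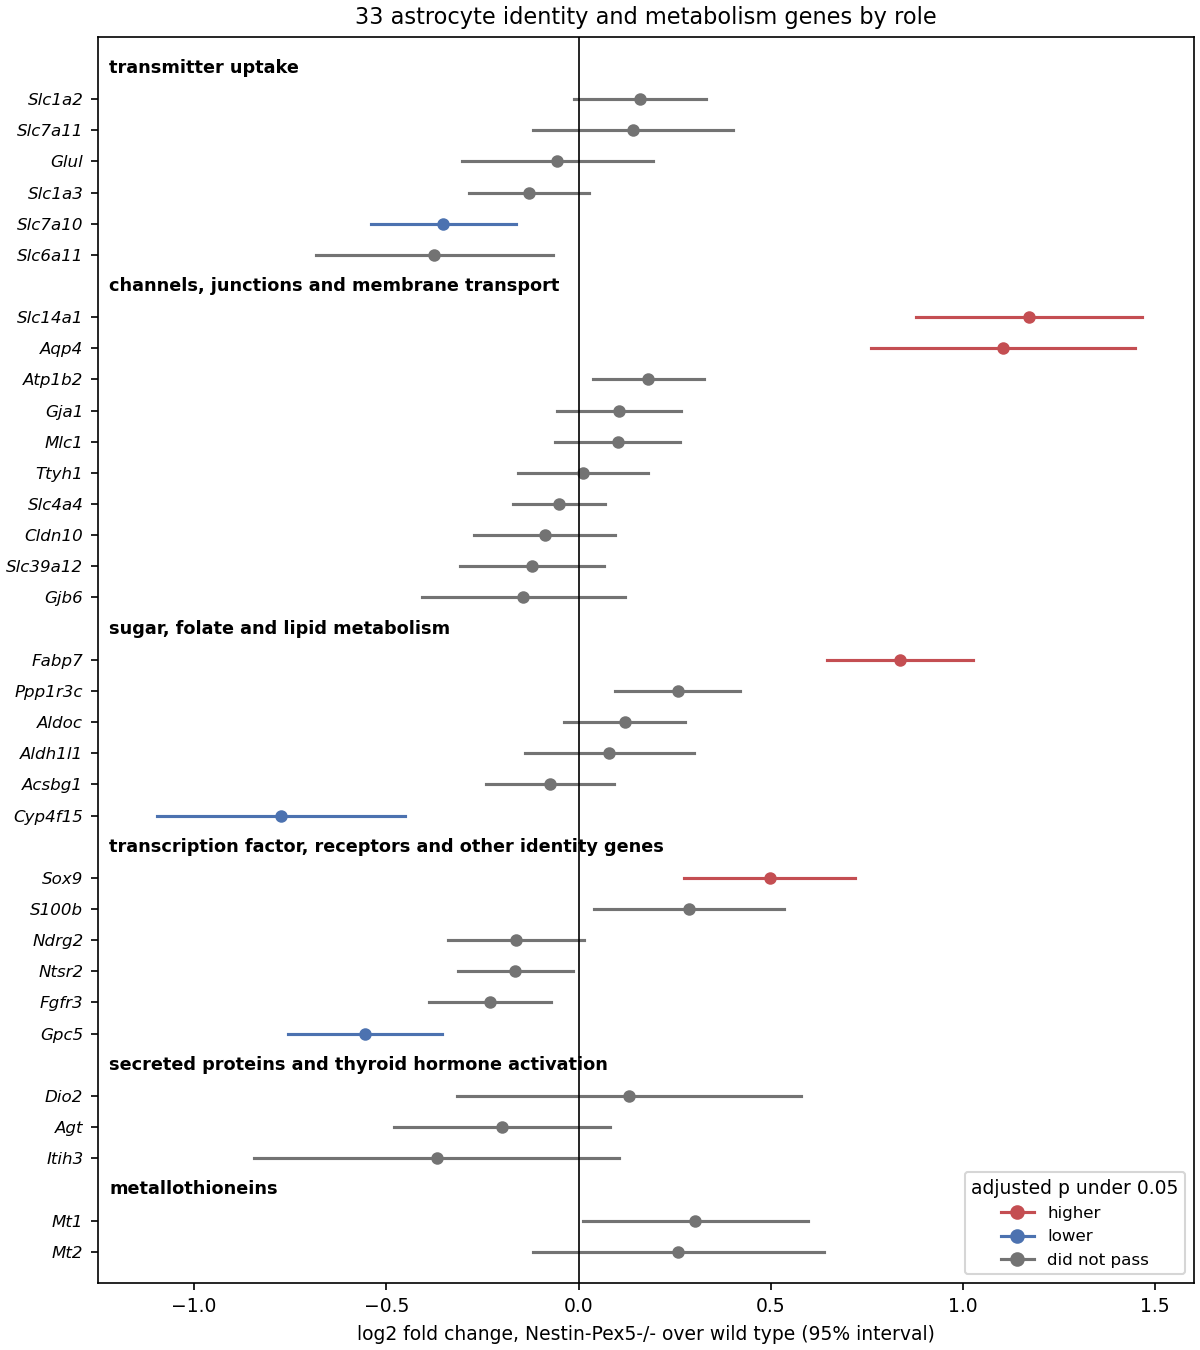
Difference in log2 RMA value, Nestin-Pex5-/- minus wild type (horizontal axis), with its 95% interval from limma, for the 33 astrocyte genes grouped by role and ordered by size within each group. Red and blue mark genes past the threshold, and 20 of the 26 grey intervals lie within 0.5 of 0.

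Among the genes for transmitter uptake and turnover, the main glutamate transporters did not pass. Slc1a2, which encodes GLT-1, read 12.70, 12.79, 12.69 and 12.48 in wild type and 12.75, 12.81, 12.81 and 12.92 in Nestin-Pex5-/- arrays. The groups overlapped, with wild type replicate 4 lowest and Nestin-Pex5-/- replicate 10 highest, and the difference was 0.16 (95% interval -0.01 to 0.33). Slc1a3, which encodes GLAST, ran from 10.98 to 11.22 in wild type and from 10.94 to 11.10 in Nestin-Pex5-/- arrays, a difference of -0.13 (-0.29 to 0.03). Glul, glutamine synthetase, overlapped throughout, with wild type replicates 2 and 3 at 12.72 and 13.20 and a difference of -0.05 (-0.30 to 0.19).

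Slc6a11, the GABA transporter GAT-3 of astrocytes, had the largest negative difference of any gene that did not pass. Its wild type arrays read 10.51, 10.32, 10.28 and 10.60, and its Nestin-Pex5-/- arrays 10.30, 10.29, 9.85 and 9.77. Nestin-Pex5-/- replicates 7 and 8 lay inside the wild type range, while replicates 9 and 10 lay well below it. The difference was -0.37 (95% interval -0.68 to -0.07; adjusted p = 0.197). Slc7a11, the cystine-glutamate exchanger, ran from 7.18 to 7.68 in wild type and from 7.31 to 7.64 in Nestin-Pex5-/- arrays, with a difference of 0.14 (-0.12 to 0.40).

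Among channels, junctions and membrane transport, Slc14a1 and Aqp4 stood alone past the threshold. Atp1b2, the beta subunit of the glial sodium pump, read 12.48, 12.44, 12.36 and 12.62 in wild type and 12.63, 12.68, 12.63 and 12.67 in Nestin-Pex5-/- arrays. The groups did not overlap, but the difference of 0.18 (95% interval 0.04 to 0.33) did not pass with all arrays (adjusted p = 0.179). It passed without wild type replicate 4 (adjusted p = 0.0329), the highest wild type array, whose removal can only widen the rise.

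The gap junction genes did not pass in either direction. Gja1, which encodes the main connexin of astrocytes, ran from 12.91 to 13.18 in wild type and from 13.08 to 13.19 in Nestin-Pex5-/- arrays, a difference of 0.11 (-0.06 to 0.27). Gjb6, which encodes another astrocyte connexin, ran from 10.28 to 10.81 and from 10.35 to 10.52, a difference of -0.14 (-0.41 to 0.12). Mlc1, an endfoot membrane protein lost in a human leukodystrophy, differed by 0.10 (-0.06 to 0.26).

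The other 4 genes of this role kept close to 0. Slc4a4, the sodium bicarbonate cotransporter, had the tightest wild type group of these, 11.41 to 11.47, and differed by -0.05 (-0.17 to 0.07). Ttyh1, a membrane protein of the tweety family, differed by 0.01 (-0.16 to 0.18), and Cldn10, a claudin, by -0.09 (-0.27 to 0.09). Slc39a12, a zinc importer, differed by -0.12 (-0.31 to 0.07).

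In the metabolism group, Fabp7 and Cyp4f15 moved in opposite directions and the enzymes of sugar and folate metabolism did not pass. Ppp1r3c, the subunit that targets protein phosphatase 1 to glycogen, read 10.90, 10.80, 10.63 and 10.93 in wild type and 11.04, 11.12, 11.09 and 11.05 in Nestin-Pex5-/- arrays. The Nestin-Pex5-/- arrays were close together and all above the wild type arrays, with a difference of 0.26 (95% interval 0.10 to 0.42; adjusted p = 0.0881). It passed without wild type replicate 4 (adjusted p = 0.0388), again the highest wild type array. Aldh1l1, the folate enzyme used as a general astrocyte marker, ran from 9.13 to 9.57 in wild type and from 9.40 to 9.57 in Nestin-Pex5-/- arrays, a difference of 0.08 (-0.14 to 0.30). Acsbg1, an acyl-CoA synthetase for long-chain fatty acids, differed by -0.08 (-0.24 to 0.09). Aldoc, the aldolase of astrocytes, differed by 0.12 (-0.04 to 0.28) on its brightest probe set.

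Among the receptors and other identity genes, Fgfr3 and Ntsr2 pointed down without passing. Fgfr3, a fibroblast growth factor receptor, read 10.46, 10.57, 10.72 and 10.65 in wild type and 10.47, 10.34, 10.29 and 10.37 in Nestin-Pex5-/- arrays. Only Nestin-Pex5-/- replicate 7 reached the wild type range, and the difference was -0.23 (95% interval -0.39 to -0.07; adjusted p = 0.119). The call was made when arrays were scaled to Actb or to 8 reference genes (adjusted p = 0.0394 and 0.0445). Both scales were themselves higher in Nestin-Pex5-/- arrays, which shifts every difference down. Ntsr2, a neurotensin receptor, had arrays that did not overlap, though the nearest pair both round to 11.54, and a difference of -0.16 (-0.31 to -0.01; adjusted p = 0.254).

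S100b, the calcium-binding protein that oligodendrocytes also make, read 10.93, 10.83, 11.03 and 11.40 in wild type and 11.31, 11.31, 11.33 and 11.38 in Nestin-Pex5-/- arrays. Wild type replicate 4, the array with high oligodendrocyte markers, was the highest of all 8, and the other 3 wild type arrays lay below every Nestin-Pex5-/- array. The difference was 0.29 (95% interval 0.04 to 0.53; adjusted p = 0.218), and without that array 0.40 (adjusted p = 0.0043). Leaving out the highest wild type array can only widen a rise, so that fit restates its high reading. The part of oligodendrocyte content in this result was not tested. Ndrg2, a cytoplasmic protein abundant in astrocytes, differed by -0.16 (-0.34 to 0.01).

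Itih3 and Dio2 had the widest Nestin-Pex5-/- groups of the list, with SDs of 0.459 and 0.467, and Agt, the other secreted protein, had an SD of 0.146. Itih3, a heavy chain of the inter-alpha-trypsin inhibitor family, read 11.86, 11.85, 11.37 and 11.57 in wild type and 11.83, 11.52, 10.97 and 10.86 in Nestin-Pex5-/- arrays. Dio2, the deiodinase that makes active thyroid hormone and is also made by tanycytes, read 8.29, 8.26, 8.57 and 8.36 in wild type and 7.94, 8.35, 8.65 and 9.05 in Nestin-Pex5-/- arrays. The lowest and the highest of the 8 Dio2 values were both Nestin-Pex5-/- arrays. The differences were -0.37 for Itih3 (95% interval -0.84 to 0.10) and 0.13 for Dio2 (-0.32 to 0.58). Agt, angiotensinogen, differed by -0.20 (-0.48 to 0.08).

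The metallothioneins, small zinc-binding proteins, turned on 1 wild type array. Mt1 read 12.48, 12.25, 12.84 and 12.24 in wild type and 12.85, 12.89, 12.63 and 12.66 in Nestin-Pex5-/- arrays. Mt2 read 11.95, 11.75, 12.68 and 12.06 in wild type and 12.45, 12.39, 12.31 and 12.34 in Nestin-Pex5-/- arrays. In both genes wild type replicate 3 was high, inside or above the Nestin-Pex5-/- range, and the other 3 wild type arrays were below it. The differences of 0.30 (95% interval 0.01 to 0.60) and 0.26 (-0.12 to 0.64) did not pass, and both genes passed without that array (adjusted p = 0.0413 and 0.0212). That array was picked from these same values, so the passing without it only restates its high reading.

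Of the 26 genes that did not pass, 13 had a positive and 13 a negative difference. Over all 33 genes 17 were positive and 16 negative, beside 6968 and 11226 of all genes. For 20 of them the 95% interval lay within 0.5 of 0 on the log2 scale, and for Slc6a11, S100b, Itih3, Dio2, Mt1 and Mt2 it reached further. At an unadjusted p under 0.05, 8 of the 33 genes were higher and 6 lower, beside 8.85% and 8.01% of all genes. In 10 of the 33 genes the 2 genotypes had no overlapping arrays, 30.3%, beside 11.1% of all genes: the 7 called genes and Atp1b2, Ppp1r3c and Ntsr2. For each of these 10 genes an exact two-sided permutation test over the 70 assignments of arrays gave p = 0.0286, the smallest it can give with 4 arrays against 4. Groups without overlap always give this value, so it only restates the lack of overlap. The median within-genotype SD was 0.126 over the 33 genes and 0.117 over all genes.

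**Figure D3:**
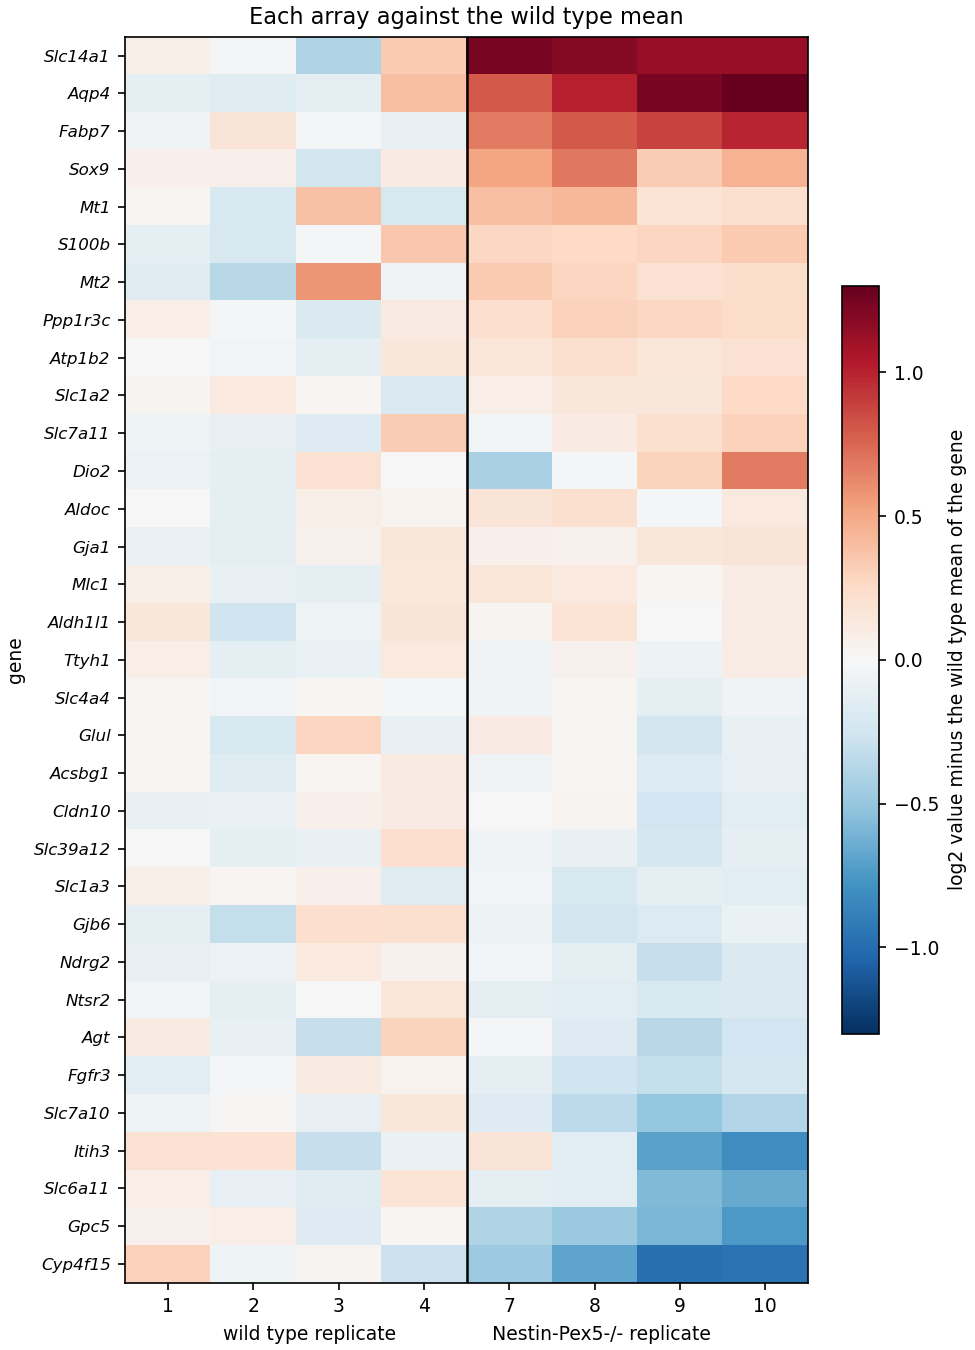
Log2 RMA value of each array minus the wild type mean of the same gene (colour scale, red above and blue below), with the 33 astrocyte genes in rows ordered by difference and the 8 arrays in columns. Nestin-Pex5-/- replicates 9 and 10 are the deepest blue for Cyp4f15, Gpc5, Slc6a11 and Itih3 and the deepest red for Aqp4 and Fabp7.

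The 4 Nestin-Pex5-/- arrays fell into pairs in many of these genes. Replicates 7 and 8 were both above replicates 9 and 10 in 19 of the 33 genes, both below in 7, and mixed in 7. The gap between the pair means was widest for Itih3 (11.67 against 10.91), Dio2 (8.15 against 8.85) and Slc6a11 (10.30 against 9.81). The third principal component over all genes set the same pairs apart, at 14.6 and 10.6 against -12.1 and -12.0. The count above was made for the 33 genes only, so it does not show whether they differ in this from other genes.

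The 4 genes that rose had positive differences in both pairs, and the 3 that fell had larger negative differences in replicates 9 and 10. Against the 4 wild type arrays, replicates 7 and 8 alone gave differences of 1.21 for Slc14a1, 0.90 for Aqp4, 0.73 for Fabp7 and 0.60 for Sox9, all past the threshold. Replicates 9 and 10 alone gave 1.13, 1.31, 0.94 and 0.39, with Sox9 no longer past it (adjusted p = 0.126). Cyp4f15 differed by -0.58 with replicates 7 and 8 alone (adjusted p = 0.160) and by -0.97 with 9 and 10 alone (adjusted p = 0.0143). Gpc5 differed by -0.44 (adjusted p = 0.0725) and by -0.67 (0.0106), and Slc7a10 by -0.26 (0.311) and by -0.45 (0.0444). Slc6a11 and Itih3 passed with replicates 9 and 10 alone, at -0.62 and -0.75, and not with 7 and 8 alone, at -0.13 and 0.01. The difference between the pairs was not tested, since the labels name no such groups. The pairs were read from these same values. Slc6a11 and Itih3 were named above for their wide pair gaps, so their passing with replicates 9 and 10 only restates those gaps. Cyp4f15, Gpc5 and Slc7a10 also read higher in replicates 7 and 8, so their split by pair restates that order. These fits have fewer arrays, so calls are lost more easily. Over all genes, replicates 7 and 8 alone gave 381 higher and 36 lower genes, and 9 and 10 alone gave 524 and 140.

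Some marker lists of other cells split by the same pairs and others did not. The mean over 9 meningeal fibroblast markers stood at 7.22 and 7.44 in the first pair, Nestin-Pex5-/- replicates 7 and 8, against 8.49 and 8.44 in the second pair, beside 8.02 to 8.60 in wild type arrays. The mean over 11 hypothalamic peptide and factor genes stood at 9.90 and 9.60 in the first pair, against 9.40 and 9.36 in the second, beside 9.54 to 9.88 in wild type. Oligodendrocyte markers averaged 11.45 and 11.71 in the first pair and 11.95 and 11.88 in the second, and precursor markers 8.88 and 8.86, then 9.18 and 9.13. Endothelial and pericyte markers were slightly higher in the second pair, at 8.59 and 8.64 against 8.67 and 8.74. Both pairs lay within the 8.55 to 8.89 of wild type for that list. Neuron markers were slightly higher in the first pair, at 12.28 and 12.29 against 12.27 and 12.26. Microglia markers, at 9.56 and 9.95 against 9.74 and 9.90, did not follow the pairs, nor did the choroid plexus or the tanycyte and ependyma markers. The part of tissue content in the astrocyte values was not tested.

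In the list, 20 genes were read by several probe sets, 72 probe sets in all for the 33 genes, and 10 of the 72 passed the threshold adjusted over 34958 probe sets, where 3.47% did. All 3 Aqp4 probe sets were higher, by 1.11, 1.27 and 1.24, and both Slc14a1 probe sets were higher by 1.17. The other Sox9 probe sets differed by 0.33 and 0.27 without passing (adjusted p = 0.102 and 0.146), beside 0.50 for the brightest. In limma over all probe sets, the only probe set of Slc7a10 did not pass (adjusted p = 0.0594).

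**Figure D4:**
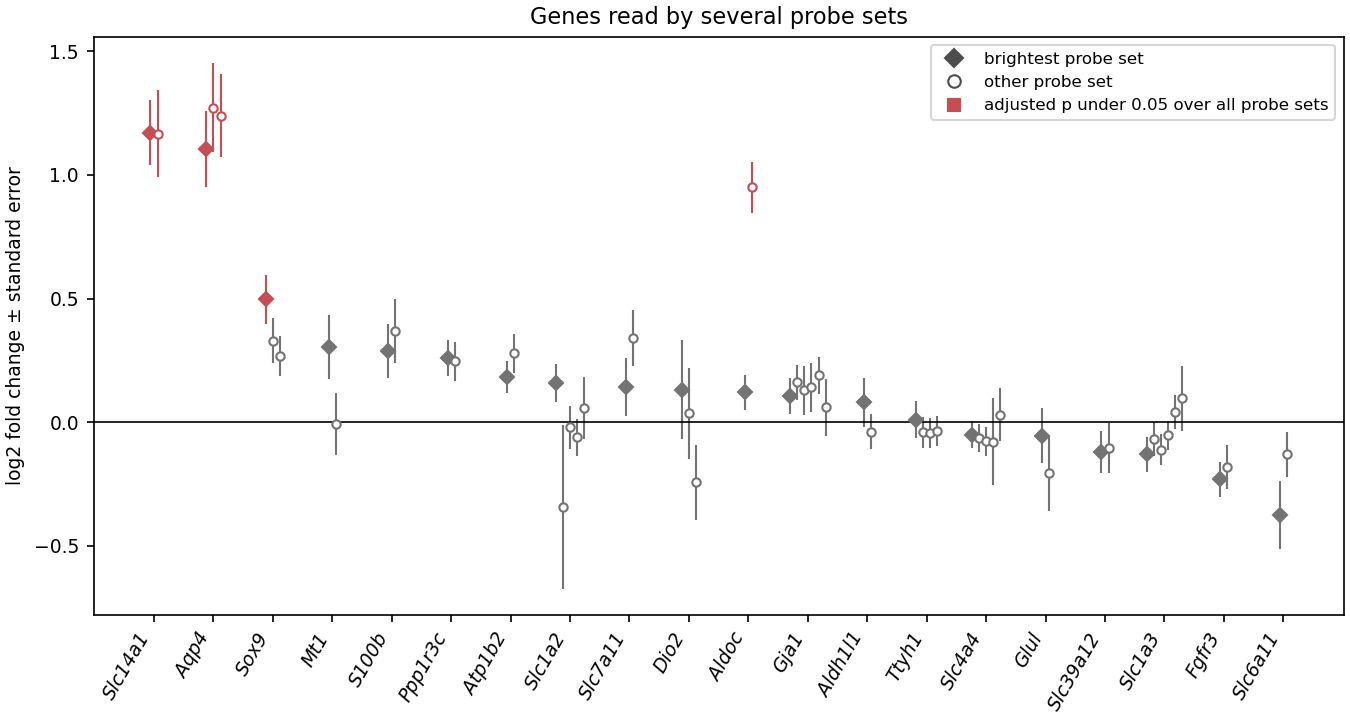
Difference in log2 RMA value, Nestin-Pex5-/- minus wild type (vertical axis, bars are the standard error), for every probe set of the 20 astrocyte genes that have several, brightest first. Aqp4 and Slc14a1 are higher on every probe set, and for Aldoc the dimmer probe set stands at 0.95 against 0.12 for the brightest.

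Aldoc gave the widest split of these. Its brightest probe set read 13.63, 13.52, 13.71 and 13.68 in wild type and 13.80, 13.85, 13.61 and 13.76 in Nestin-Pex5-/- arrays, and the groups overlapped. Its other probe set read 8.79, 8.69, 8.64 and 8.79 in wild type and 9.79, 9.83, 9.36 and 9.72 in Nestin-Pex5-/- arrays, a rise of 0.95 ± 0.10 (SE; limma adjusted p = 6.4e-04 over probe sets) with no overlap. Which transcript ends the 2 probe sets read is not given in the sources used here, so the Aldoc call rests on the choice of probe set.

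In 7 genes, Aldh1l1, Dio2, Mt1, Slc1a2, Slc1a3, Slc4a4 and Ttyh1, the probe sets pointed in both directions, and none of those probe sets passed. The dimmer Mt1 probe set differed by -0.01, beside 0.30 for the brighter one. Among the dimmer probe sets, 1 for Slc1a2 read 10.45 in wild type replicate 2 and between 8.78 and 8.90 in the other 7 arrays. A further Slc1a2 probe set that is shared with Gm13872 was left out, and it ran from 6.39 to 6.82 in wild type and from 6.32 to 6.70 in Nestin-Pex5-/- arrays.

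The list was set beside a pair of other astrocyte gene lists, by counts and medians alone. Of 49 measured genes that are also enriched in astrocytes, 8 were higher and 3 lower, 22.4% called, with a median of -0.01. The share called and the median lay close to those of the 33 genes. Of 37 measured genes of reactive astrocytes, which share no gene with the 33, 21 were higher and 1 lower, 59.5% called, with a median of 0.81. Without wild type replicate 2, or without Nestin-Pex5-/- replicate 9 or 10, the astrocyte-enriched list gave 5 higher genes, and without wild type replicate 1 it gave 1 lower gene. Without wild type replicate 3 the reactive list gave 2 lower genes. Scaled to Actb the astrocyte-enriched list gave 4 higher and 6 lower genes, and scaled to the reference genes 5 and 6.

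**Figure D5:**
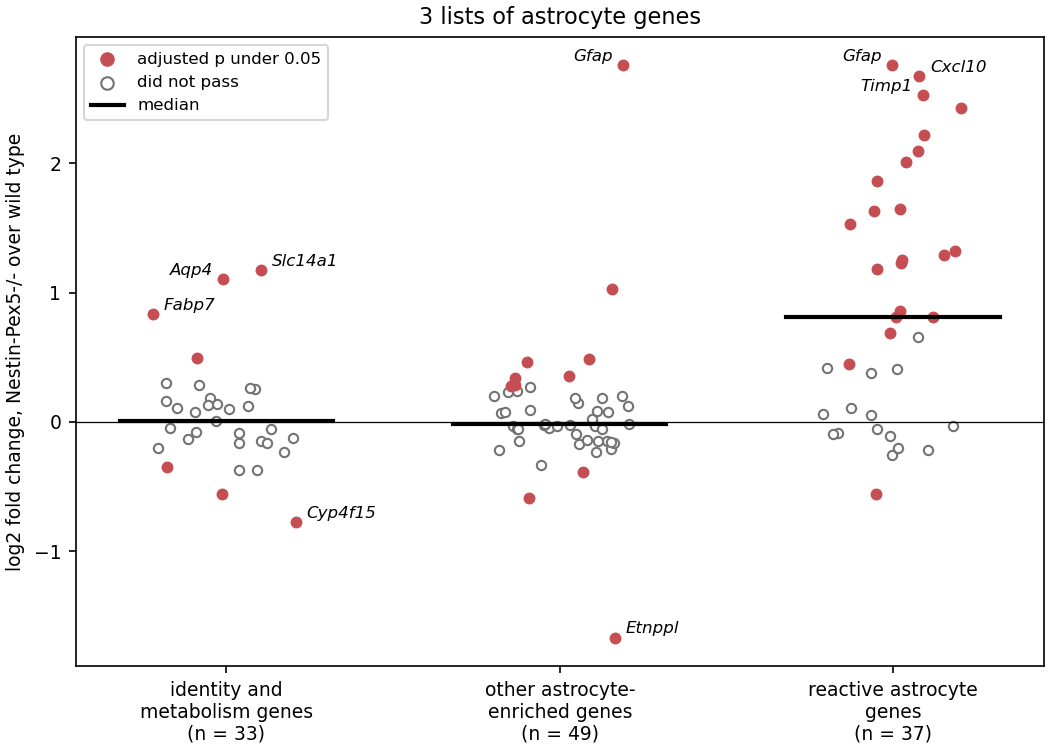
Difference in log2 RMA value, Nestin-Pex5-/- minus wild type (vertical axis), of each gene in the 3 astrocyte lists, with filled points for genes past the threshold and a bar at each list's median. The medians of the identity and metabolism genes and of the other astrocyte-enriched genes lie at 0.01 and -0.01, and that of the reactive genes at 0.81.

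Gfap, which both of these lists hold, read 10.50, 10.22, 10.07 and 10.87 in wild type and 12.91, 13.09, 13.33 and 13.37 in Nestin-Pex5-/- arrays, a rise of 2.76 ± 0.17. Etnppl, a phospholyase that breaks down phosphoethanolamine, read 10.07, 10.02, 10.46 and 10.01 in wild type and 9.18, 8.97, 7.91 and 7.82 in Nestin-Pex5-/- arrays, and fell by 1.67 ± 0.30 (SE). Its low arrays were again Nestin-Pex5-/- replicates 9 and 10.

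Other named genes of the astrocyte-enriched list were Axl, a receptor tyrosine kinase that microglia also carry, which rose by 1.03, and Apoe, the lipid carrier of astrocytes and microglia, which rose by 0.46. Pbxip1 rose by 0.49, and Hes5, a Notch target, fell by 0.58 (adjusted p = 0.0258). Hes5 was called in 10 of 18 alternative fits, and the call was lost with other choices of probe set, without wild type replicate 1, without Nestin-Pex5-/- replicate 7, 9 or 10, and with either pair of Nestin-Pex5-/- arrays alone, with an adjusted p of up to 0.230. From the reactive list, Cxcl10 rose by 2.68, Timp1 by 2.53, Serpina3n by 2.43, Lcn2 by 2.22 and Aspg by 2.10. In wild type, Lcn2 (4.99), Cxcl10 (5.36), Timp1 (5.59) and Aspg (6.29) read below the array medians of 6.70 to 6.84. Which cells gave the signal of the reactive list was not tested, and 10 of 11 microglia markers were higher too. Fbln5 was the 1 gene of that list that fell.

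Markers of other cells are given for the whole tissue. Of 11 microglia markers 10 were higher, with a list mean of 7.95 to 8.15 in wild type and 9.56 to 9.95 in Nestin-Pex5-/- arrays. All 11 oligodendrocyte markers pointed up and none passed, 7 of them at an unadjusted p under 0.05, with list means of 11.01 to 11.76 and 11.45 to 11.95. Of 8 oligodendrocyte precursor markers 1 was higher, with list means of 8.55 to 8.94 and 8.86 to 9.18. All 12 tanycyte and ependyma markers pointed down and 1 passed, with list means of 7.44 to 7.78 and 7.14 to 7.41, which do not overlap. Of these lists, precursors, tanycytes and ependyma bear on Fabp7 and Sox9, which such cells also make, and their part in the rise of these genes was not tested. No marker of neurons (12 measured), endothelium and pericytes (11), choroid plexus (9), meningeal fibroblasts (9) or the hypothalamus (11) passed in limma. At an unadjusted p under 0.05 these lists held 0 higher genes, and 3, 1, 0, 1 and 1 lower genes in that order. Neuron list means were 12.32 to 12.43 in wild type and 12.26 to 12.29 in Nestin-Pex5-/- arrays, which do not overlap. Of the 12 neuron markers 10 had negative and 2 positive differences. Negative differences were also held by 9 of 9 meningeal fibroblast, 10 of 11 hypothalamus and 8 of 9 choroid plexus markers. The endothelium and pericyte list held 7 of 11. Over all 18194 genes, 11226 had a negative difference, so a downward lean is not particular to any of these lists.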

How the data were processed

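Total RNA of hypothalamus was hybridised to 8 Affymetrix arrays, 1 per mouse. The authors deposited log2 RMA values for 45101 probe sets, and the RMA software, its version and the build are not given in the sources used here. Platform annotation gave 34958 probe sets 1 gene, 932 several and 9211 none, and the last groups were not used for gene values. The probe set of highest mean stood for a gene, without a filter on level. Genotype was the only term in limma 3.58.1 (R 4.3.3), and tables and figures were made in Python 3.11.15 with matplotlib 3.10.9. The fit was tested on simulated data. Nothing in the labels states more than separate mice, and 4 arrays per genotype limit the precision. The 33 genes and the marker, astrocyte-enriched and reactive lists were chosen with earlier results of these data known. All 33 genes are named, and from the astrocyte-enriched and reactive lists the 6 called genes with the largest difference each. Alternatives were other probe set rules, a level filter, other scalings (again by quantile, to Actb, to 8 reference genes), limma's trend and robust settings, array weights, an adjusted p under 0.01, and fits with fewer arrays.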

Additional observations from a re-analysis of the deposited data

Results flagged for a closer look

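Of the 33 genes in 2 genotypes, 66 groups of 4 arrays, an array far from the other 3 was found in 2 groups, and chance flags about 1 group in 20. Aqp4 in wild type was 11.69 in replicate 4, far above the next array at 11.17. Sox9 in wild type was 7.67 in replicate 3, far below the next array at 7.97.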

How the results depend on the processing

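Aqp4, Slc14a1 and Fabp7 were called in all 18 alternative fits. Cyp4f15 and Gpc5 were called in 17, Sox9 in 14 and Slc7a10 in 10, as given beside each gene, and the causes were not tested. Higher genes of the 33 numbered 7 with array weights and 3 to 7 when 1 array was left out. Lower genes numbered 5 with Nestin-Pex5-/- replicates 9 and 10 only, 0 with 7 and 8 only, and 1 at an adjusted p under 0.01. The median of the 33 genes moved to -0.12 scaled to Actb and -0.070 scaled to the reference genes, as the median of all genes moved to -0.16 and -0.11, since Actb was 0.13 and the mean of the 8 reference genes 0.080 higher in Nestin-Pex5-/- arrays. Of those 8 genes, Rplp0 and Gusb were higher past the threshold, while 6 had negative differences and the median was -0.083. That scale was therefore partly set by genes that changed. Over all genes, 724 higher and 144 lower became 540 and 1086 with Actb, 602 and 683 with the reference genes, and 1351 and 699 with array weights. Higher astrocyte-enriched genes numbered 4 with Actb, 5 with the reference genes, 4 with replicates 9 and 10 only, 4 with 7 and 8 only, 4 at an adjusted p under 0.01, and 5 to 10 with 1 array left out. Lower ones numbered 6, 6, 2, 1, 1 and 1 to 4 in that order, and 7 with array weights. Higher reactive genes numbered 8 with genes above the median level, where 17 were left to test, and lower ones 0 with the mean of the probe sets, 0 with replicates 7 and 8 only, and 1 to 2 with 1 array left out.

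Of genes that did not pass, the sign turned as follows. With the mean of the probe sets, Slc1a2 was -0.042, Ttyh1 -0.028 and Dio2 -0.025. Scaled to Actb, Gja1 was -0.022, Mlc1 -0.026, Ttyh1 -0.12, Aldh1l1 -0.047 and Aldoc -0.0077. Ttyh1 was -0.070 scaled to the reference genes and -0.0032 after a second quantile step, and Mt1 was -0.0080 without _s_at and _x_at probe sets. With replicates 7 and 8 only, Glul was 0.060, Cldn10 0.021, Itih3 0.011 and Dio2 -0.22. With 1 array left out, Glul ran from -0.12 to 0.037, Ttyh1 from -0.033 to 0.054, Aldh1l1 from -0.0067 to 0.14 and Dio2 from -0.051 to 0.32. No paired analysis was possible because the genotypes share no replicate numbers. The deposited values carry no detection calls, so signal over background was not read.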
